A study of Gallus gallus with 8 samples.

Results

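The 6 genes described here are the E proteins TCF3 and TCF12 and the inhibitors of DNA binding ID1, ID2, ID3 and ID4, measured in chicken DT40 B cells. They were taken as every probe whose accession matched a chicken RefSeq record of these symbols, which gave 24 of the 43603 probes on the array and 6 of the 5005 gene symbols matched. TCF3 had 3 probes, TCF12 had 11, ID1 had 2, ID2 had 3, ID3 had 2 and ID4 had 3. TCF4, another E protein gene, had no matched probe and was not analysed here. All 24 probes passed the filter on dim signal, which required a reading well above background on a minimum of 2 arrays of the 8. An ID4 probe, A_87_P035301, passed only through the 2 BCL6KO arrays, which favoured a higher reading there.

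E proteins are basic helix-loop-helix transcription factors that bind E-box motifs as dimers. TCF3 encodes the splice forms E12 and E47, together called E2A, which B cell progenitors need to start the B lineage programme, and TCF12 encodes HEB, its close relative. ID proteins have the helix-loop-helix but not the basic region, so a dimer of an E protein with an ID protein cannot bind DNA. In mammals ID1 is a target of BMP signalling, ID2 is needed for innate lymphoid cells, ID3 restrains E2A in germinal centre B cells, and ID4 is best known from the nervous system and the mammary gland.

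DT40 is a line from a bursal lymphoma of a chicken, and RNA was read on one-colour Agilent arrays. There were 3 arrays of wild-type cells (WT), 2 of BCL6-deficient cells (BCL6KO) and 3 labelled as deficient in IRF4 and in BCL6 (DKO). The BCL6 protein is a repressor of the germinal centre B cell and IRF4 a factor required for plasma cells. The labels do not say how many clones were used, and the extraction protocol speaks of independent cultures for WT and IRF4KO cells only, so the p-values measure the spread between these arrays, which may be technical. The signal of each probe is given on a log2 scale relative to the 75th percentile on its array, and such a value is called a log2 level. A gene was called when limma's adjusted p over all genes tested was under 0.05.

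The targeted genes were read first. For BCL6 the WT arrays averaged 2.55 ± 0.03 (SD, n = 3), the BCL6KO arrays -4.73 ± 0.34 (n = 2) and those labelled DKO 0.80 ± 0.13 (n = 3) as log2 levels. IRF4 averaged 3.01 ± 0.13, 5.09 ± 0.42 and -1.72 ± 0.06 in the same order. The arrays labelled DKO thus kept 29.7% of the WT signal of BCL6 and 3.76% of that of IRF4, and they are called DKO-labelled throughout. On the same BCL6 probe the BCL6KO arrays kept 0.64% of the WT signal, and the DKO-labelled arrays read 46.3-fold above them. Where this probe lies relative to the deleted part is not given in the sources used here, and the reason for the difference was not tested. In the value table that the authors deposited, the columns labelled WT followed the DKO-labelled scanner files at Pearson's r of 0.999 across probes, and the columns labelled DKO followed none above 0.975. With that table read by its own labels, DKO against WT turned over for TCF3, ID1, ID2, ID3 and ID4, and BCL6KO against WT turned over for ID3 (0.52) and ID4 (-0.26), neither called. In that table BCL6KO against WT thus sets BCL6KO beside columns that followed the DKO-labelled arrays. Between those groups the scanner files gave -0.68 for ID3 and 0.06 for ID4 (DKO-labelled against BCL6KO). IRF4 was 5.15 higher in the table's columns labelled DKO than in those labelled WT. Each direction given below for the DKO-labelled arrays, and those of ID3 and ID4 in BCL6KO against WT, rest on the labels of the scanner files.

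Between 75.1% and 79.2% of spots were well above background on the BCL6KO arrays, against 62.4% to 68.2% for WT and 65.8% to 67.8% for DKO-labelled. The dimmest log2 level that counted as well above background was -7.97 to -7.38 in BCL6KO. It was -6.87 to -6.05 in WT and -6.60 to -6.32 on the DKO-labelled arrays. A probe that passed the filter only through the BCL6KO arrays was thus favoured to read higher there, but did not have to. The BCL6KO arrays were scanned in a session of their own, so that session and the genotype cannot be told apart, whereas WT and DKO-labelled arrays shared a session and 2 slides held both. The BCL6KO pair was also less alike, with an SD of log2 differences of 0.647 against 0.438 to 0.482 for pairs within the other groups. The median gene stood 0.25 higher in BCL6KO than in WT on the log2 scale, and -0.05 with arrays scaled to their median, so changes in BCL6KO of that size have no settled sign.

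Most genes on the array were called, which sets the background for every count here. Of 24069 genes tested, 69.8% were called in BCL6KO against WT, 68.7% in DKO-labelled against BCL6KO and 52.5% in DKO-labelled against WT. Of the 6 genes, 5 were called in each of the 3 comparisons, and with 6 genes such shares cannot be set apart from the background. In BCL6KO against WT, TCF3, ID1 and ID4 were higher and TCF12 and ID3 lower. The DKO-labelled cells had higher TCF12 and ID2 than BCL6KO, and lower TCF3, ID1 and ID3. Against WT they had higher TCF3, ID1, ID2 and ID4 and lower ID3. Groups did not overlap for 6, 5 and 5 of the 6 genes in these comparisons, beside 79%, 77.8% and 69.5% of all genes. Both comparisons with WT share the WT arrays, and the comparisons with BCL6KO share that pair.

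**Figure D1:**
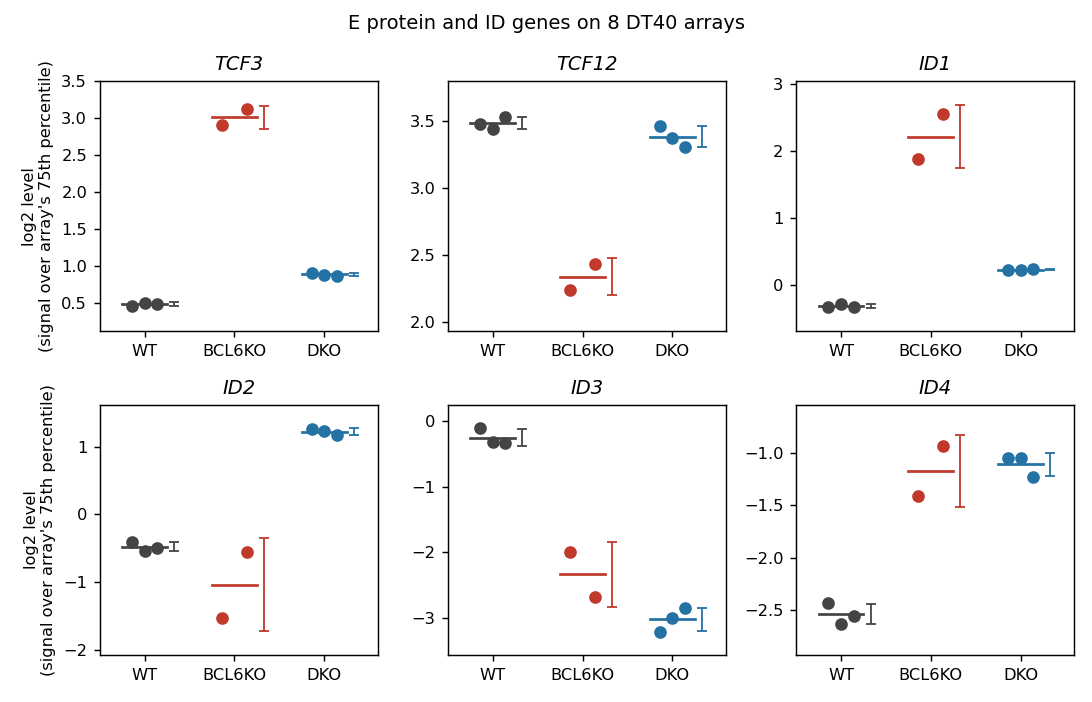
Log2 level (log2 processed signal minus the array's 75th percentile, vertical axis) of the 6 genes on each array, with WT, BCL6KO and DKO-labelled arrays side by side; points are arrays, horizontal lines group means and capped bars the mean ± SD. TCF3 and ID1 are highest in BCL6KO, TCF12 is lowest there, ID2 is highest and ID3 lowest on the DKO-labelled arrays, and ID4 is lowest in WT.

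TCF3 was the E protein gene that rose in BCL6KO. Its log2 level was 0.45, 0.50 and 0.49 on the WT arrays, 2.90 and 3.12 on the BCL6KO arrays and 0.91, 0.88 and 0.87 on the DKO-labelled arrays. The 3 groups did not overlap, with BCL6KO far above the others and DKO-labelled a little above WT. The difference of BCL6KO from WT was 2.53 ± 0.08 on the log2 scale (SE), or 5.77-fold (limma, adjusted p = 7.15e-07). DKO-labelled cells stood 4.36-fold below BCL6KO (log2 change -2.12 ± 0.08, limma adjusted p = 1.8e-06). They stood 1.32-fold above WT (0.40 ± 0.07, limma adjusted p = 0.00303), a size that 50.8% of all genes exceeded in that comparison. On the slides that held both groups the DKO-labelled array exceeded the WT array by 0.41 and 0.39. The other TCF3 probes gave 2.47 and 2.17 for BCL6KO against WT and 0.48 and 0.41 for DKO-labelled against WT, all called in the fit of probes.

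TCF12 went the other way in BCL6KO. By its brightest probe, the log2 level was 3.48, 3.44 and 3.53 in WT, 2.24 and 2.43 in BCL6KO and 3.46, 3.37 and 3.31 on the DKO-labelled arrays. BCL6KO lay below both other groups, and the WT and DKO-labelled arrays overlapped. BCL6KO stood 2.21-fold below WT for TCF12 (log2 change -1.15 ± 0.09, limma adjusted p = 3.74e-05) and DKO-labelled cells 2.06-fold above BCL6KO (1.05 ± 0.09, limma adjusted p = 6.23e-05). The difference of DKO-labelled from WT was -0.10 ± 0.08 (limma adjusted p = 0.329) and was not called. With arrays scaled to their median it was -0.25, which passed the test (limma adjusted p = 0.0242).

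The 11 TCF12 probes share one transcript record and are not replicates. In BCL6KO against WT, 9 of the 11 were lower, where 29.4% of all probes were lower, and these 9 changed by -1.22 to -0.48. The remaining pair read -0.16 each and was not called. In DKO-labelled against WT only A_87_P197698 was called, and it was singled out after its values were seen. Its log2 level was -1.39, -1.48 and -1.38 in WT, -2.46 and -2.81 in BCL6KO and -2.56, -2.65 and -2.54 on the DKO-labelled arrays. Here the DKO-labelled arrays lay within the BCL6KO range, 2.25-fold below WT (log2 change -1.17 ± 0.10, limma adjusted p = 7.74e-05 over all probes), while the other 10 probes ran from -0.25 to 0.16. Where this probe lies in the transcript is not given in the sources used here, and whether it reads another isoform was not tested.

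**Figure D2:**
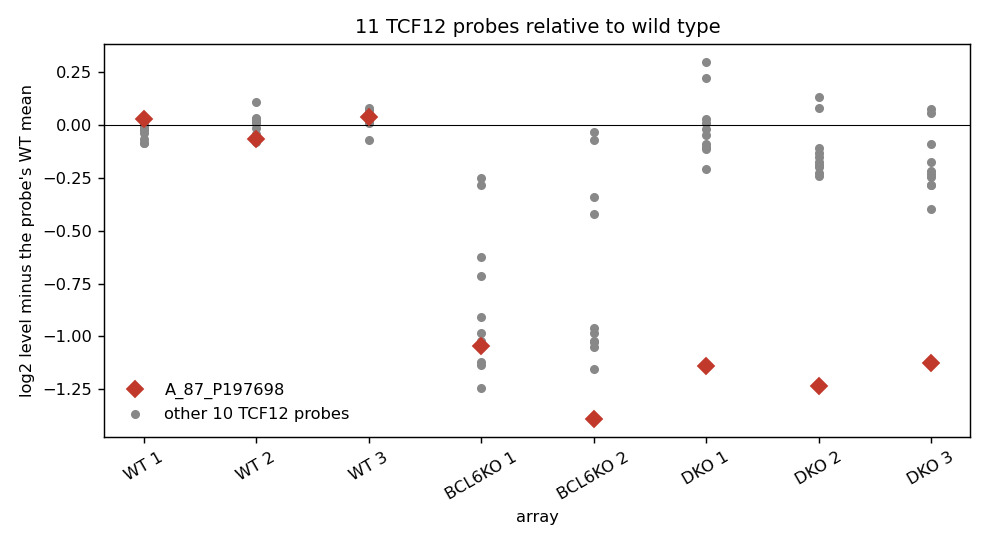
Log2 level of each of the 11 TCF12 probes minus that probe's WT mean (vertical axis) on each of the 8 arrays (horizontal axis); grey points are 10 probes and red diamonds are A_87_P197698. On the DKO-labelled arrays the red diamonds average -1.17, below every grey point, and the means of the other probes run from -0.25 to 0.16.

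ID1 rose in BCL6KO. Its log2 level was -0.34, -0.29 and -0.33 in WT, 1.88 and 2.56 in BCL6KO and 0.22, 0.22 and 0.23 on the DKO-labelled arrays. The groups did not overlap, and their order, WT below DKO-labelled below BCL6KO, was that of TCF3. BCL6KO exceeded WT 5.81-fold (log2 change 2.54 ± 0.18, limma adjusted p = 2.62e-05), and DKO-labelled cells were 3.98-fold below BCL6KO (-1.99 ± 0.18, limma adjusted p = 8.89e-05). DKO-labelled cells exceeded WT 1.46-fold (0.55 ± 0.16, limma adjusted p = 0.0267). That call was lost without any single WT or DKO-labelled array (adjusted p up to 0.0727) and with median scaling (0.39, adjusted p = 0.065). The dimmer ID1 probe gave 2.48 and 0.78 for the comparisons with WT, and both were called in the fit of probes.

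ID2 was higher on the DKO-labelled arrays. The log2 level was -0.41, -0.53 and -0.49 in WT, -1.52 and -0.55 in BCL6KO and 1.27, 1.22 and 1.17 on the DKO-labelled arrays. The DKO-labelled arrays stood above all others, and the BCL6KO pair differed by about a whole log2 unit. DKO-labelled cells exceeded WT 3.24-fold (log2 change 1.70 ± 0.23, limma adjusted p = 0.000754) and BCL6KO 4.78-fold (2.26 ± 0.25, limma adjusted p = 0.000254). All 3 ID2 probes rose in both of these comparisons. BCL6KO against WT gave -0.56 ± 0.25 (limma adjusted p = 0.0866), not called. Without BCL6KO replicate 2 it was -1.05 and called (limma adjusted p = 9.37e-05), and without BCL6KO replicate 1 it was -0.078.

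ID3 was lower than WT in both other groups. Its log2 level was -0.10, -0.31 and -0.33 in WT, -1.99 and -2.69 in BCL6KO and -3.21, -3.01 and -2.85 on the DKO-labelled arrays. WT stood above the rest, and no BCL6KO array fell to the DKO-labelled range. BCL6KO was 4.25-fold below WT (log2 change -2.09 ± 0.21, limma adjusted p = 0.000156). DKO-labelled cells were 6.84-fold below WT (-2.77 ± 0.19, limma adjusted p = 3e-05), and 6.71% of all genes changed more in that comparison. DKO-labelled against BCL6KO was -0.68 ± 0.21 (limma adjusted p = 0.0261). That call was lost without BCL6KO replicate 1 (-0.34), DKO-labelled replicate 1 (-0.59) or DKO-labelled replicate 2 (-0.69), with other scalings and with the replicate block (-0.71, limma adjusted p = 0.0523). The dimmer ID3 probe, A_87_P146313, read -0.81 and -0.68 for the comparisons with WT, both called, and 0.14 between BCL6KO and DKO-labelled cells.

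ID4 was higher than WT in both other groups by its brightest probe. The log2 level was -2.43, -2.63 and -2.56 in WT, -1.42 and -0.93 in BCL6KO and -1.05, -1.05 and -1.23 on the DKO-labelled arrays. WT lay below all other arrays, and BCL6KO and DKO-labelled arrays overlapped. BCL6KO exceeded WT 2.58-fold (log2 change 1.37 ± 0.15, limma adjusted p = 0.000235) and DKO-labelled cells exceeded WT 2.70-fold (1.43 ± 0.14, limma adjusted p = 0.000144). Between those groups the difference was 0.06 ± 0.15 (limma adjusted p = 0.728). The other ID4 probes were too dim to compare WT with DKO-labelled cells. A_87_P052966 was well above background on 1 WT array, both BCL6KO arrays and 0 DKO-labelled arrays, and A_87_P035301 on the BCL6KO pair alone. Against BCL6KO, A_87_P052966 was at least 2.18-fold lower in DKO-labelled cells, where the brightest probe gave 0.06. A mean over all 3 probes, which takes in these dim readings, gave 0.052 for DKO-labelled against WT.

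**Figure D3:**
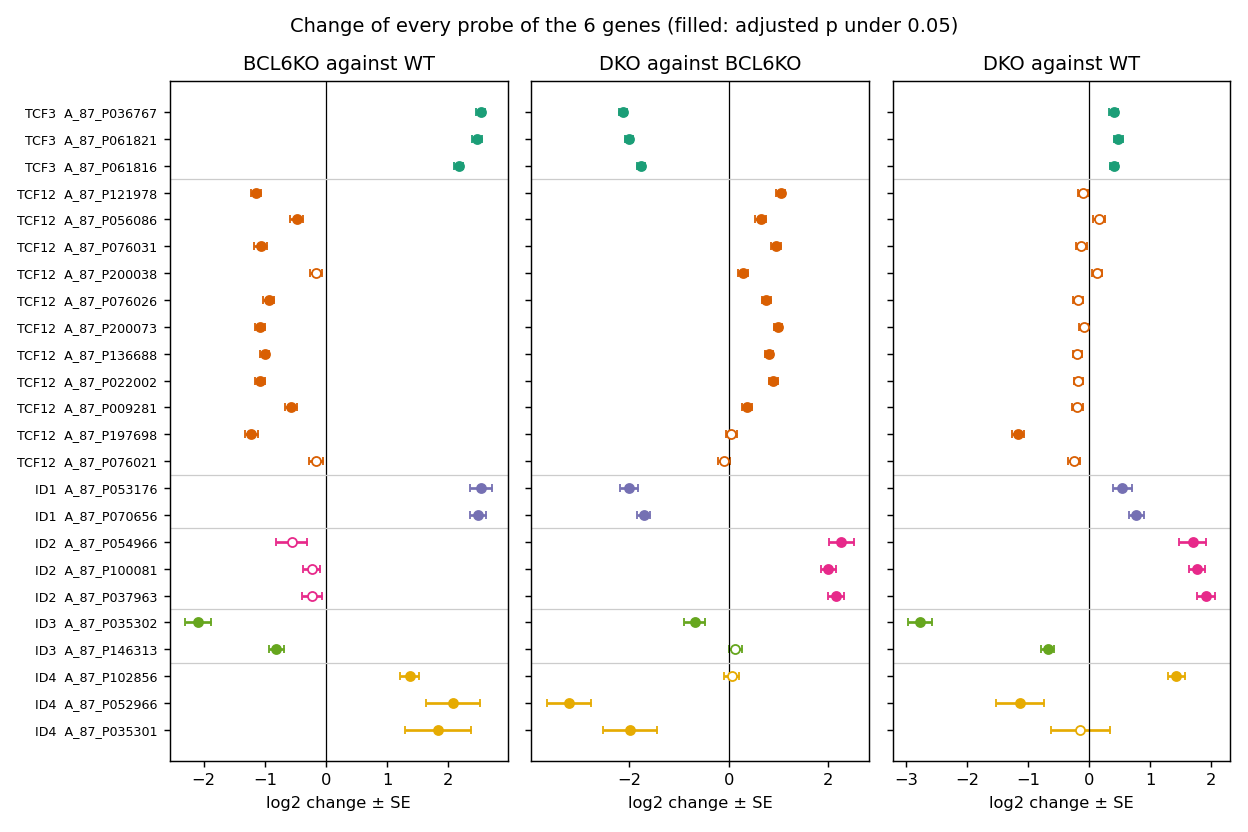
Log2 change of each of the 24 probes (points, with the standard error of the limma fit as bars) on the horizontal axis of each comparison, grouped by gene; filled points passed the test and open ones did not. Probes of TCF3, ID1 and ID2 lie close together within each comparison, while probes of TCF12 and ID3 spread more. The dim ID4 probes are the lower ID4 points in the comparisons of DKO-labelled arrays and the higher ones in BCL6KO against WT.

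Over the 24 probes, 19 were called in BCL6KO against WT, 20 in DKO-labelled against BCL6KO and 13 in DKO-labelled against WT, beside 70.6%, 68.9% and 54% of all probes. In BCL6KO against WT 8 were higher and 11 lower, beside 41.2% and 29.4% of all probes. DKO-labelled against BCL6KO gave 12 higher and 8 lower, beside 30.1% and 38.8%, and DKO-labelled against WT 9 and 4, beside 28.9% and 25.1%. Probes of a gene share a target, so these counts weigh TCF12 most, and they include the 2 dim ID4 probes. Both dim probes count as higher in BCL6KO against WT and as lower in DKO-labelled against BCL6KO. A_87_P052966 is also among the 4 lower in DKO-labelled against WT, groups it was too dim to compare. The E proteins moved in opposite directions in BCL6KO, TCF3 up and TCF12 down, and so did the ID genes, ID1 and ID4 up and ID3 down. By the brightest probe of each gene, TCF3 and ID1 on the DKO-labelled arrays lay between WT and BCL6KO, TCF12 was not told apart from WT, and ID2 lay above and ID3 below every array of the other groups. On the dimmer ID3 probe the DKO-labelled and BCL6KO arrays overlapped.

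For each gene, the 3 named genes whose log2 levels followed it most closely over the 8 arrays were picked from 4332 genes as a description. The arrays form 3 groups, and the BCL6KO pair was scanned in a session of its own. Any gene with the same order of groups thus scores high, and 124 to 330 genes had a Pearson's r over 0.95 with a given member. CCL1 (r = 0.999), WWP1 and CSNK1D followed TCF3. LIN9 (0.997), TFDP2 and CDC45, which act in the cell cycle, followed TCF12. SRPRA (0.998), TXNDC5 and ACAA2 followed ID1. IL10RA, PHAX and FGF18 followed ID2, with IL10RA at 0.996. CYTH1 (0.998), PNAT10 and BTN1A1 followed ID3, and TBC1D15 (0.996), ITGB1 and CTNNB1 followed ID4.

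Genes that work with E proteins were read from lists whose members were named with earlier results of these data known. Among tissue-specific helix-loop-helix partners of E proteins, 13 of 46 were tested. In BCL6KO against WT, 8 were higher, 1 was lower and 4 were not called, beside 42.3% of all genes higher and 27.5% lower, and the median change was 0.72 against 0.25 for all genes. Over the alternative settings, some of which change how many are tested, 2 to 10 were higher and the median ran from 0.07 to 2.27. Most were dim, and 3 of the 8, MESP1, TCF15 and MYOG, had no WT array well above background (MYOG is named because of this count). TCF15 and MYOG passed the filter only through the BCL6KO arrays, which favoured a higher reading there. Without them 6 of 11 were higher with a median of 0.64. NEUROD1, a neuronal factor, was 2.04-fold higher (1.03 ± 0.19, limma adjusted p = 0.00258) and HAND2, a heart and limb factor, 2.31-fold lower (-1.21 ± 0.08, limma adjusted p = 1.59e-05), though normexp background correction turned HAND2 to 0.25. In DKO-labelled cells HAND2 was instead 1.96-fold above WT (0.97 ± 0.07, limma adjusted p = 3.33e-05). In that comparison 3 partners were higher, 2 lower and 8 not called, beside 28.7% of all genes higher and 23.9% lower.

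Among other helix-loop-helix factors, which dimerize outside the E protein class, 8 of the 15 tested were higher and 2 lower in BCL6KO than in WT. Of all genes 42.3% were higher and 27.5% lower. Over the alternative settings 5 to 10 of the list were higher and 0 to 3 lower in BCL6KO. MXD4, a partner of MAX that opposes MYC, was 4.98-fold higher (2.31 ± 0.09, limma adjusted p = 1.66e-06). MITF, which drives melanocyte and osteoclast genes, was 1.63-fold lower (-0.71 ± 0.15, limma adjusted p = 0.00451). Against WT, the DKO-labelled arrays had 9 higher and 1 lower, beside 28.7% and 23.9% of all genes, but 1 to 9 were higher and 0 to 2 lower over the alternative settings. ARNTL, a clock factor, stood at 3.03-fold (1.60 ± 0.09, limma adjusted p = 1.17e-05).

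Among cofactors that bind E proteins, 15 were tested. BCL6KO had 5 higher and 6 lower than WT, beside 42.3% and 27.5% of all genes. Over the alternative settings these counts ran from 2 to 6 and from 1 to 9. LDB1, which bridges LIM-only proteins in E protein complexes, was 6.37-fold lower (-2.67 ± 0.20, limma adjusted p = 3.54e-05), and RUNX1 3.25-fold lower (-1.70 ± 0.22, limma adjusted p = 0.000459). RUNX1T1, an ETO corepressor, was too dim to count as above background in WT, and read at least 5.22-fold higher in BCL6KO and at least 96.5-fold higher in DKO-labelled cells. LMO2, a partner of LDB1, was 3.09-fold higher in DKO-labelled cells than in WT (1.63 ± 0.16, limma adjusted p = 0.000152). Between DKO-labelled and BCL6KO cells 12 cofactors were higher and 3 lower, beside 28.9% and 39.8% of all genes. In DKO-labelled cells against WT 9 were higher, 0 lower and 6 not called, beside 28.7% of all genes higher and 23.9% lower. GATA3 passed the filter only through the BCL6KO arrays, which favoured a higher reading there than in the other groups. Without it 4 of 14 cofactors were higher in BCL6KO than in WT. DKO-labelled cells then had 12 higher and 2 lower than BCL6KO. Over the alternative settings the cofactors counted higher in DKO-labelled cells ran from 3 to 12 against BCL6KO and from 2 to 11 against WT. Those lower ran from 0 to 3 and from 0 to 1.

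BMP and TGF-beta signalling, which controls ID1 and ID3 in mammals, gave 10 higher, 5 lower and 7 not called of 22 in BCL6KO, and 10 higher, 3 lower and 9 not called in DKO-labelled cells against WT. Of all genes 42.3% were higher and 27.5% lower in the first comparison, and 28.7% and 23.9% in the second. INHBB passed the filter only through the BCL6KO arrays, though its levels there (-6.20 and -5.74) overlapped those of the DKO-labelled arrays (-6.20 to -5.97). It was also called higher in DKO-labelled cells than in WT, though no array of those groups was well above background. Without INHBB, 9 of 21 were higher in each of these comparisons. Over the alternative settings 3 to 13 of the list were higher and 0 to 10 lower in BCL6KO, and 2 to 13 and 0 to 3 in DKO-labelled cells. SMAD1, a BMP effector, was 2.18-fold higher in BCL6KO (1.12 ± 0.09, limma adjusted p = 5.43e-05) and 2.94-fold higher in DKO-labelled cells (1.56 ± 0.08, limma adjusted p = 8.69e-06). SMAD3, a TGF-beta effector, was 2.43-fold lower in BCL6KO (1.19 higher with normexp, not called) and at least 6.99-fold lower in DKO-labelled cells than in WT. INHBA, an activin subunit, was not well above background in WT and was at least 23.7-fold higher in DKO-labelled cells.

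Most of the B lineage genes that E2A regulates in mammals were lower in BCL6KO. In BCL6KO against WT, 11 of the 14 tested were lower, 2 higher and 1 not called, beside 27.5% of all genes lower and 42.3% higher. The median change of the list was -4.38, against 0.25 for all genes. The median ran from -4.68 to -1.51 over the alternative settings, the smallest with normexp. CD79B, a B cell receptor signalling chain, was 437-fold lower (-8.77 ± 0.14, limma adjusted p = 5.75e-08). PAX5, the B lineage commitment factor, was below that limit on both BCL6KO arrays and read at least 30.6-fold lower, and for CD72 and EBF1 1 array of the BCL6KO pair passed it. Over the alternative settings 5 to 13 genes of the list were lower and 1 to 3 higher. IRF8 was 2.69-fold higher (1.43 ± 0.12, limma adjusted p = 6.75e-05). On the same BCL6KO arrays TCF3, ID1 and ID4 were higher and TCF12 and ID3 lower than in WT. Whether these changes are linked to those of the list was not tested. On the DKO-labelled arrays 10 of the 14 were above BCL6KO, while against WT 2 were higher and 8 lower. Of all genes 28.9% were above BCL6KO there, and against WT 28.7% were higher and 23.9% lower. CD74 was 4.26-fold lower in DKO-labelled cells than in WT (-2.09 ± 0.22, limma adjusted p = 0.000223) and DNTT 6.47-fold higher (2.69 ± 0.19, limma adjusted p = 3.53e-05).

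Markers of cell identity also differed between the groups. Of all genes, 27.5% were lower and 42.3% higher in BCL6KO against WT. Of the 8 B cell markers tested, 6 were lower and 1 higher in that comparison, with a median of -7.11. PAX5, EBF1, CD79B, CD72 and POU2AF1 are also in the B lineage list above, so these counts repeat part of that result. PAX5 was below background on both BCL6KO arrays. The summed linear level of the B cell markers ran from 117 to 129 in WT, 49.1 to 68.8 in BCL6KO and 66.9 to 80.9 on the DKO-labelled arrays. In BCL6KO most of it was POU2AF1 and JCHAIN (mean log2 levels 5.30 and 4.13). The 7 T cell markers summed to 68.1 to 70.6, 2.33 to 3.57 and 12.7 to 16.2, most of it CD3D in WT (6.01), with CD4 below background everywhere. Of 12 mesenchymal markers tested, 7 were higher and 2 lower in BCL6KO, with a median of 0.88. FN1 and THY1 passed the filter only through the BCL6KO arrays, which favoured a higher reading there. Without them 5 of 10 were higher in BCL6KO, with a median of 0.51. CDH11 was at least 587-fold higher there and POSTN at least 10.6-fold. COL1A2 instead averaged -1.68 in WT, -3.21 in BCL6KO and 1.30 on the DKO-labelled arrays. The mesenchymal sum, 28.6 to 30.8 in WT, 21.8 to 24.3 in BCL6KO and 11.1 to 11.4 on the DKO-labelled arrays, mostly followed VIM in WT (4.87), which was lower in both other groups. Erythroid and thrombocyte markers summed to 0.307 to 0.338 in WT, 0.860 to 1.07 in BCL6KO and 1.33 to 1.40 on the DKO-labelled arrays. Of the 4 of these markers tested, 3 were higher and 0 lower in BCL6KO than in WT. In DKO-labelled cells 1 was higher and 0 lower than in WT, beside 28.7% and 23.9% of all genes. F13A1 was at least 36.9-fold higher in BCL6KO than in WT. HBBA averaged -5.40 in WT, -5.57 in BCL6KO and 0.09 in DKO-labelled cells, where it made up most of the sum. TFRC averaged -2.19 in WT and -2.28 in DKO-labelled cells, and HBAD -3.93 and -3.82. Myeloid markers summed to 0.394 to 0.462, 0.317 to 1.25 and 0.472 to 0.566, and epithelial and neural markers to at most 0.0712 on any array. Their part in the E protein and ID results was not tested, and in RNA from whole cultures fewer cells of a type and less RNA per cell cannot be told apart.

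Cell cycle genes tied to E and ID proteins gave 6 higher and 8 lower of 16 in BCL6KO against WT. In DKO-labelled cells against WT they gave 6 higher and 7 lower. Of all genes 42.3% were higher and 27.5% lower in the first comparison, and 28.7% and 23.9% in the second. Over the alternative settings 3 to 7 of the list were higher and 6 to 9 lower in BCL6KO, and 3 to 8 and 1 to 7 in DKO-labelled cells. CDK6, a G1 kinase, was 22.0-fold lower in BCL6KO (-4.46 ± 0.08, limma adjusted p = 6.7e-08), and ETS1, an activator that ID proteins can bind, 8.30-fold lower. CCNE1, the cyclin of the S phase entry, was 4.39-fold higher (2.14 ± 0.11, limma adjusted p = 5.08e-06). In DKO-labelled cells CCND2 was 4.01-fold higher and CCNE2 4.60-fold lower than in WT. CDKN1A, an inhibitor of cell cycle kinases that E proteins can activate, was 3.58-fold lower (-1.84 ± 0.12, limma adjusted p = 2.5e-05).

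Genes for the turnover of ID and E proteins gave 2 higher, 3 lower and 7 not called of the 12 tested in BCL6KO, and 3 higher and 0 lower in DKO-labelled cells against WT. All genes gave 42.3% higher and 27.5% lower, then 28.7% and 23.9%. Over the alternative settings 1 to 3 were higher and 1 to 7 lower in BCL6KO, the most lower with median scaling, and 0 to 6 and 0 to 2 in DKO-labelled cells. For USP1, a deubiquitinase that stabilises ID proteins in mammals, BCL6KO was 1.52-fold below WT (-0.60 ± 0.07, limma adjusted p = 0.000254). STUB1, a ubiquitin ligase, was 1.97-fold higher in BCL6KO (0.98 ± 0.07, limma adjusted p = 3.42e-05) and 1.47-fold higher in DKO-labelled cells than in WT.

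**Figure D4:**
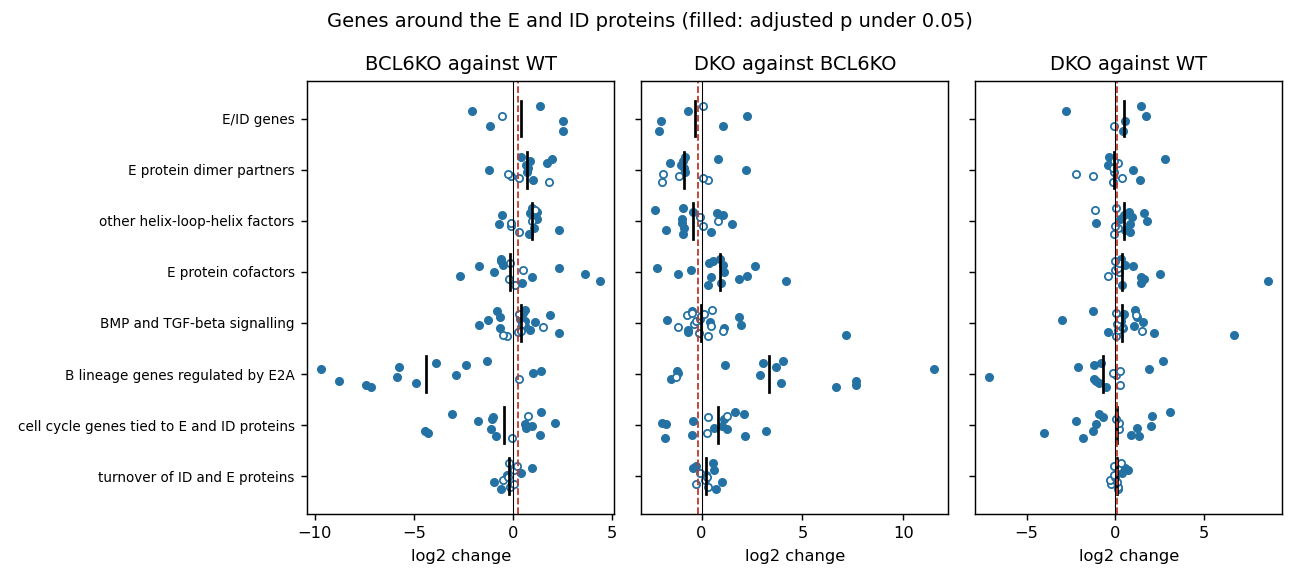
Log2 change (horizontal axis) of the 6 genes and of each tested gene in the 7 lists around them, by comparison; filled points passed the test, black bars are medians and the red dashed line is the median of all genes. The B lineage list lies lowest in BCL6KO against WT, with a median of -4.38, and highest in DKO-labelled against BCL6KO, with a median of 3.36.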

How the data were processed

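RNA of 8 DT40 samples (3 WT, 2 BCL6KO, 3 labelled DKO) was read on one-colour Agilent arrays. Per the file headers, each scanner file holds intensity values made by Agilent Feature Extraction (version 10.7.1.1 for WT and DKO, 10.7.3.1 for BCL6KO), with a processed signal that is background-subtracted and not normalized between arrays. The authors deposited a separate value table of intensity values, and the submitters' processing notes name limma and R 2.12.0. Its columns were log2-transformed here and used as an alternative only. The 75th percentile of the processed signal was 2944 to 3109 in WT, 1927 to 2193 in BCL6KO and 2553 to 2620 on the DKO-labelled arrays, and the number of arrays limits the precision.

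Probes were named by accession through RefSeq (10857 of 43603 probes matched). The log2 of the processed signal minus the array's 75th percentile was fitted in R 4.3.3 with limma 3.58.1 after reading with data.table version 1.17.8, with a mean per group, 5 residual and 1.59 prior degrees of freedom, and Benjamini-Hochberg adjustment. One probe per gene was used, that of the highest mean, over 24069 genes. All probes were also fitted alone, over 34145 probes. On simulated data for BCL6KO against WT with 24069 genes, 100 genes were changed by 1 and 100 by 2 on the log2 scale. Of these, 47% and 73% were recovered. In the data 69.8% of genes were called, a far larger share than was changed in the simulation, so these rates may not hold there. A fold written "at least" sets a group against the dimmest signal well above background on each array where the other group was below it.

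The genes and lists were chosen with earlier results of these data known. Named genes were all members with their probes, the targeted genes, up to 3 called genes per list, comparison and direction, and the 3 closest patterns per member. Normexp used the median signal, since the files hold no mean signal. Samples with the same replicate number did not deviate together (correlations of -0.058 to 0.046, 1 of 8 arrays closest to its own number), so the numbers were not used as pairs.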

Additional observations from a re-analysis of the deposited data

How the results depend on the processing

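Over the settings run on the scanner files, direction and call held for TCF3, TCF12, ID1 and ID4 in BCL6KO against WT, for TCF3, TCF12, ID1 and ID2 in DKO-labelled against BCL6KO, and for ID2 and ID3 in DKO-labelled against WT. The cause of the changes below was not tested. Normexp background correction called 6883, 5957 and 2824 genes (BCL6KO against WT, DKO-labelled against BCL6KO, DKO-labelled against WT) and 3 of the 6 genes in the last. It gave ID3 -1.31 in BCL6KO and -1.21 between DKO-labelled and BCL6KO, ID4 -0.50 there, and TCF3 0.38 and ID1 0.53 in DKO-labelled against WT, none called. Of 109 results for leading genes of the lists, only 40 held with normexp, while 62 kept their direction but lost the call and 7 turned. It turned HAND2 (0.25), TGFBR2 (0.59), SMAD3 (1.19) and CDKN2B (1.16) in BCL6KO, and MESP1 (-1.89), TGFBR2 (-0.34) and PSMD4 (0.12) in DKO-labelled against BCL6KO. With its aberrant background spots repaired, a setting chosen after seeing the data, ID2 in BCL6KO was -0.60 and called, and ID4 in DKO-labelled against BCL6KO was -0.0098. A minimum fold of 1.5 called 8611, 8118 and 5263 genes and 3 of the 6 genes in DKO-labelled against WT, dropping ID3 (-0.68) between DKO-labelled and BCL6KO, and TCF3 (0.40) and ID1 (0.55) against WT. Median scaling called ID2 in BCL6KO (-0.86) and TCF12 in DKO-labelled against WT (-0.25), and lost ID3 (-0.53) and ID1 (0.39). The call of ID3 in DKO-labelled against BCL6KO was also lost with quantile normalization (-0.59), cyclic loess (-0.59), the mean of probes (-0.27), array weights (-0.66), only the groups compared (-0.68) and the replicate block (-0.71). The replicate block changed no other call of the 6 genes. The mean of probes also gave ID4 -1.71 in DKO-labelled against BCL6KO, TCF12 -0.20 (called) and ID4 0.052 (not called) in DKO-labelled against WT. Leaving out each array in turn gave ID2 in BCL6KO from -1.05 to -0.078, ID3 from -1.03 to -0.34 and ID4 from -0.18 to 0.31 in DKO-labelled against BCL6KO, and ID1 in DKO-labelled against WT from 0.54 to 0.56.

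Read by its own labels, the authors' value table called 8312, 7032 and 6887 genes and 3 of the 6 genes in BCL6KO. It gave ID3 0.52 and ID4 -0.26 in BCL6KO, ID2 -1.85, ID3 1.86 and ID4 -1.32 in DKO-labelled against BCL6KO, and TCF3 -0.84, ID1 -1.47, ID2 -4.31, ID3 2.38, ID4 -1.57, IRF4 5.15 and BCL6 1.56 in DKO-labelled against WT. Its columns labelled WT followed the DKO-labelled scanner files, so none of these comparisons holds the same arrays as its namesake above. Genes of the lists were not run on that table. Dim probes, among them 2 of ID4, limit what these arrays can show.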
